A study of Mus musculus with 18 samples.

Results

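Glycolysis, glycogen turnover and lactate transport were followed through 33 genes in cultured mouse cortical astrocytes, of 22078 genes measured. The members were chosen by function, as enzymes and transporters of these pathways, and all 33 were found by Entrez identifier in the gene count tables of both sampling times. The cells had been transfected with a plasmid for a designer receptor (DREADD), a muscarinic receptor altered to respond to a synthetic ligand, or with a plasmid for a fluorescent protein as control. hM3Dq signals through Gq and calcium release, rM3Ds through Gs and cAMP production, and hM4Di through Gi, with less cAMP. The cells grew in high-glucose medium with serum. At 7 days after transfection all cultures, controls included, were given deschloroclozapine (DCZ), a DREADD ligand, at 8 µM for 90 min. RNA was taken at 90 min from cells with hM3Dq, rM3Ds, hM4Di or EGFP. RNA was also taken 3 days later, in medium free of ligand, from cells with hM3Dq or mCherry. Since receptor cells without DCZ are not among the groups, activation of a receptor and its presence cannot be told apart. The promoter on the plasmids, the share of cells that took them up and the mouse strain are not given in the sources used here.

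Glucose enters astrocytes mainly through GLUT1 (Slc2a1), is phosphorylated by hexokinases and is broken down to pyruvate in the cytosol. Lactate dehydrogenase turns pyruvate into lactate, which leaves through the monocarboxylate transporters MCT1 (Slc16a1) and MCT4 (Slc16a3), while pyruvate dehydrogenase sends it into mitochondria unless a pyruvate dehydrogenase kinase (Pdk) blocks the enzyme by phosphorylation. Astrocytes are the main site of glycogen in the brain, and they are known for high glycolytic flux and for release of lactate that neurons can use.

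Each of the 6 groups had 3 libraries, with total estimated counts of 16.1 to 25.2 M, and values are given as counts per 1000000 of a library's total (CPM). A floor of 3 counts, below which a level was not read, corresponded to 0.119 to 0.187 CPM, and it covers counting error only. The labels do not say that the libraries come from separate cultures, so a p-value here covers only how far libraries vary, which may be technical. Libraries EGFP 1, rM3Ds 2 and rM3Ds 3 stood apart from the other 9 at 90 min on the first principal component (52.5% of the variance) and were high in cell cycle genes, with 42.7 to 78.4 CPM of Mki67, a proliferation marker, against 3.35 to 20.6 CPM in the other 9. These 9 were not uniform. On that component hM4Di 1 lay at -8.6, the rest of the 9 at 17.5 to 25.5 and the 3 that stood apart at -65.5 to -53.3. No fit set hM4Di 1 aside together with those 3. At 3 days mCherry 3 stood apart (56.7%). Of 12 astrocyte markers only Gjb6 was below 3 counts in every library. Gfap was low, at 1.7 to 22.7 CPM. S100b had 1.08 to 8.15 CPM, except 96.2 and 87.0 CPM in rM3Ds 2 and rM3Ds 3. The 12 summed to 676.4 to 1138.5 CPM over the 18 libraries, against 1972.4 to 3529.2 CPM for 10 fibroblast and mural cell markers. Of these 10, Col1a1 alone had 663.4 to 1906.4 CPM, and Col1a2, Dcn, Pdgfrb, Acta2 and Tagln had 54.0 to 936.9 CPM. Rgs5, Cspg4, Col3a1 and Lum were low, at no more than 0.346, 6.57, 11.0 and 17.1 CPM. The sum is thus no estimate of the share of other cell types, whose part in the results was not tested.

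The pathway was transcribed at high level in every group. Per kilobase of transcript, the EGFP cultures had 686.2 ± 114.1 CPM of Aldoa, the aldolase that splits fructose-1,6-bisphosphate, and 479.1 ± 40.6 CPM of the pyruvate kinase gene Pkm (SD, n = 3). Gapdh, Eno1 and Ldha followed at 372.5 ± 55.9, 323.4 ± 73.9 and 310.6 ± 18.8 CPM per kilobase, levels that did not differ beyond their spread. Pygb, the brain form of glycogen phosphorylase, reached 188.4 ± 47.3 CPM per kilobase, far above its liver form Pygl and its muscle form Pygm (0.323 ± 0.0936 CPM per kilobase). Pdk4 at 2.03 ± 0.403 and Slc16a3 at 1.14 ± 0.699 CPM per kilobase were among the 3 lowest members. Pygm had 0.198 to 1.22 CPM over all 18 libraries, close to the floor, so that its fold changes rest on few counts. The members together summed to 8148.4 ± 448.8 CPM with hM3Dq, 8387.9 ± 319.9 CPM with rM3Ds, 8474.1 ± 885.3 CPM with hM4Di and 7590.3 ± 459.5 CPM with EGFP at 90 min (SD, n = 3 each), and these ranges overlapped in each comparison with EGFP. In RNA from whole cultures, a lower level from fewer cells of a type and from less RNA per cell cannot be told apart.

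**Figure D1:**
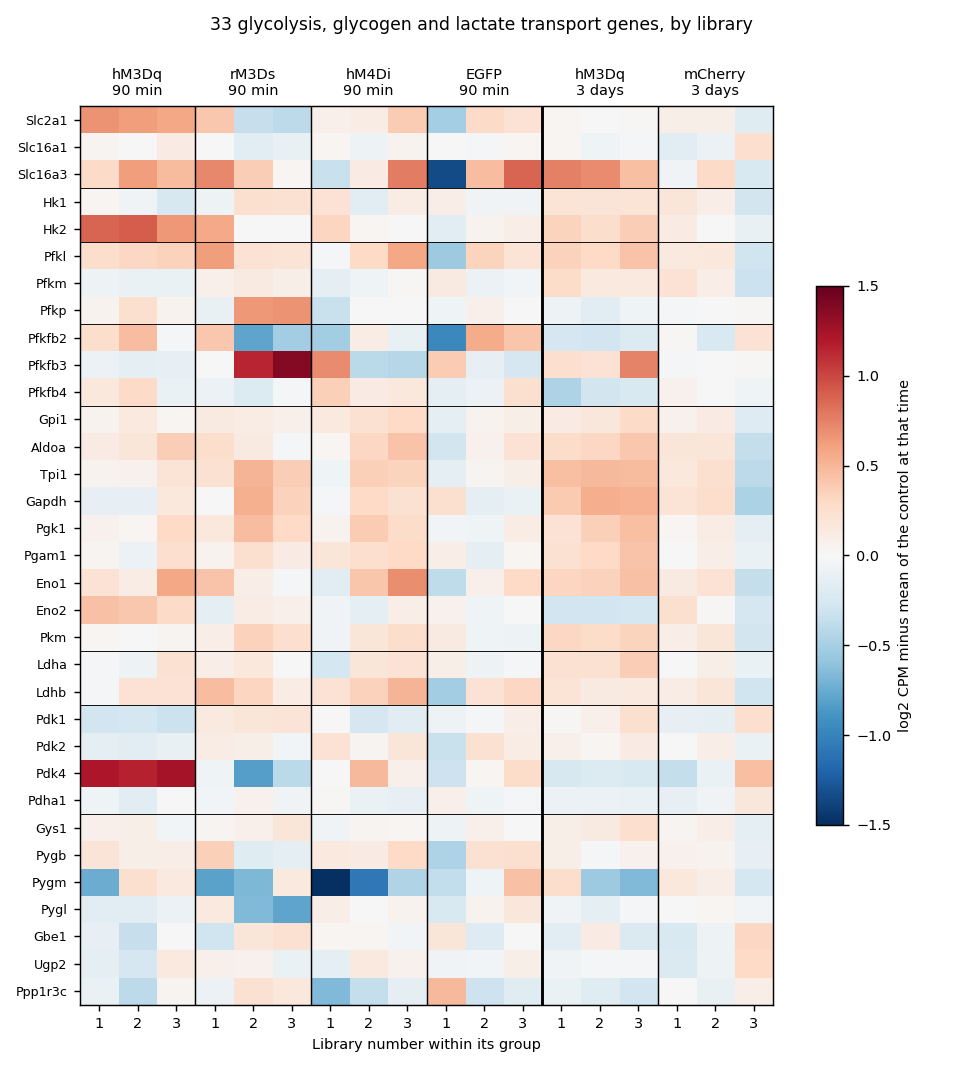
Each row is a gene, ordered by role, and each column a library. The colour is log2 CPM minus the mean log2 CPM of the control libraries of the same time, EGFP at 90 min and mCherry at 3 days, and saturates at the ends of its scale. Pdk4 and Hk2 stand out in all 3 hM3Dq libraries at 90 min, Pfkfb3 in rM3Ds 2 and rM3Ds 3, and most glycolytic enzymes are above the control mean in all 3 hM3Dq libraries at 3 days.

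After 90 min of hM3Dq activation, Pdk4 and Hk2 were higher than in EGFP cells, and no member was called lower. These were 2 of 33 members by edgeR's quasi-likelihood test over 13584 genes, with Benjamini-Hochberg adjustment and a threshold of 0.05. Of all genes tested, 0.788% were called, 0.758% higher and 0.0294% lower. The median log2 fold change of the members was 0.11, against -0.003 for all genes, and it lay above 0 in 21 of 33 members, against 49.0% of all genes.

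Pdk4 (Entrez 27273) encodes a pyruvate dehydrogenase kinase known as a fasting-response gene that diverts pyruvate from mitochondrial oxidation. It had 16.2, 15.6 and 16.6 CPM in hM3Dq libraries, against 5.64, 7.15 and 8.45 CPM in EGFP libraries. All 3 hM3Dq libraries were above all 9 other libraries at 90 min, of which the highest had 9.78 CPM. The log2 fold change over EGFP was 1.23 ± 0.22 (SE; adjusted p = 0.0256, edgeR). Hk2 (Entrez 15277), the inducible hexokinase that commits glucose to the cell's metabolism, had 56.9, 58.4 and 48.8 CPM with hM3Dq, against 27.9, 32.4 and 33.5 CPM with EGFP. Here too all 3 hM3Dq libraries were above the other 9, the closest being rM3Ds 1 with 46.3 CPM. The log2 fold change was 0.84 ± 0.16 (SE; adjusted p = 0.0388, edgeR). Hk1, the constitutive hexokinase, did not move with it. It had 287.9, 273.5 and 239.7 CPM with hM3Dq, against 304.2, 272.7 and 273.7 CPM with EGFP, and the groups overlapped. The log2 ratio of Hk2 to Hk1 within a library was thus -2.29 ± 0.06 with hM3Dq, against -3.18 ± 0.23 with EGFP (SD, n = 3). For Pdk4 over Pdk2, another kinase of the family, it was -1.46 ± 0.03 with hM3Dq, against -2.81 ± 0.18 with EGFP (SD, n = 3).

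Both calls were near the threshold. With the replicate number as a block over all 12 libraries, a pairing that the labels do not give, neither was called (Pdk4 log2 1.23, adjusted p = 0.0878, and Hk2 log2 0.83, adjusted p = 0.0688, edgeR). Leaving out any 1 of these 6 libraries ended the Hk2 call (adjusted p of 0.0659 to 0.203), and the Pdk4 call was kept only without EGFP 3 (0.0468, with 0.0596 to 0.116 for the others), at log2 fold changes of 0.78 to 0.93 for Hk2 and 1.10 to 1.36 for Pdk4. Without the 3 libraries high in cell cycle genes both were called, at 0.77 for Hk2 and 1.09 for Pdk4 (adjusted p = 0.0388 and 0.0168, edgeR). The 16 cell cycle genes summed to 146.0 to 184.7 CPM with hM3Dq, against 146.4 to 731.4 CPM with EGFP, the highest being EGFP 1. The 8 endothelial markers summed to 43.3 to 44.8 CPM with hM3Dq, against 18.8 to 35.3 CPM with EGFP, of which the VEGF receptor gene Flt1, called higher, had 17.6 to 22.2 CPM, against 6.64 to 9.71 CPM. The other well-detected endothelial markers overlapped between the groups. Tek had 19.3, 18 and 21.8 CPM with hM3Dq, against 5.08, 23.4 and 22.5 CPM with EGFP, and Vwf had 3.0 to 4.51 CPM, against 2.79 to 3.71 CPM. Of the rest, Tie1 was below 3 counts in every library of both groups and Cldn5 in every EGFP library. Pecam1 had at most 0.299 CPM with hM3Dq and 0.372 CPM with EGFP. The part of such cells in the 2 calls was not tested.

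The promoters of these 2 called genes are shown because they are the members that passed the test against a control. Both are RefSeq sequences of the minus strand of chromosome 6 in GRCm38.p6, from 250 bases before to 50 bases after the start site, given 5′ to 3′ (Pdk4 chr6:5496229-5496528 and Hk2 chr6:82774405-82774704). Motifs that were found are in capitals.
Pdk4: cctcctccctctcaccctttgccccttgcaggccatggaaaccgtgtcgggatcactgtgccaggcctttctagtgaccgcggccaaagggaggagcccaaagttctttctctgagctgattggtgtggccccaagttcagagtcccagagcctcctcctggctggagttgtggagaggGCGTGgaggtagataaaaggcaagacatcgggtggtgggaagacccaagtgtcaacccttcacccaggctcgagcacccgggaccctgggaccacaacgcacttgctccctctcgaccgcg
Hk2: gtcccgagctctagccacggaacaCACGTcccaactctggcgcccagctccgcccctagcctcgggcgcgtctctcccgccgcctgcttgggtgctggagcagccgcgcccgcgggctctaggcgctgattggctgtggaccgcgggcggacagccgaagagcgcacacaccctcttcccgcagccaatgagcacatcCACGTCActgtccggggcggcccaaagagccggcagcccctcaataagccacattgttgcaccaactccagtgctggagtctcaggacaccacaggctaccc
Searched on both strands were the cAMP response element TGACGTCA and its core TGACG, the AP-1 motifs TGAGTCA and TGACTCA, the hypoxia response cores ACGTG and GCGTG, and the E-box CACGTG. The Pdk4 window held 1 GCGTG at bases 180 to 184 of the printed sequence, 71 bases before the start site, a motif that 32.4% of 32851 RefSeq promoters of this length hold. The Hk2 window held ACGTG on the reverse strand at bases 25 to 29 and 199 to 203 (19.6% of promoters) and TGACG on the reverse strand at bases 201 to 205 (20.8%), which overlaps the second of them. The full TGACGTCA, both AP-1 motifs and CACGTG are not spelled in either window (1.79%, 5.2% and 7.15% of promoters hold them). These are matches of letters, not bound sites.

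**Figure D2:**
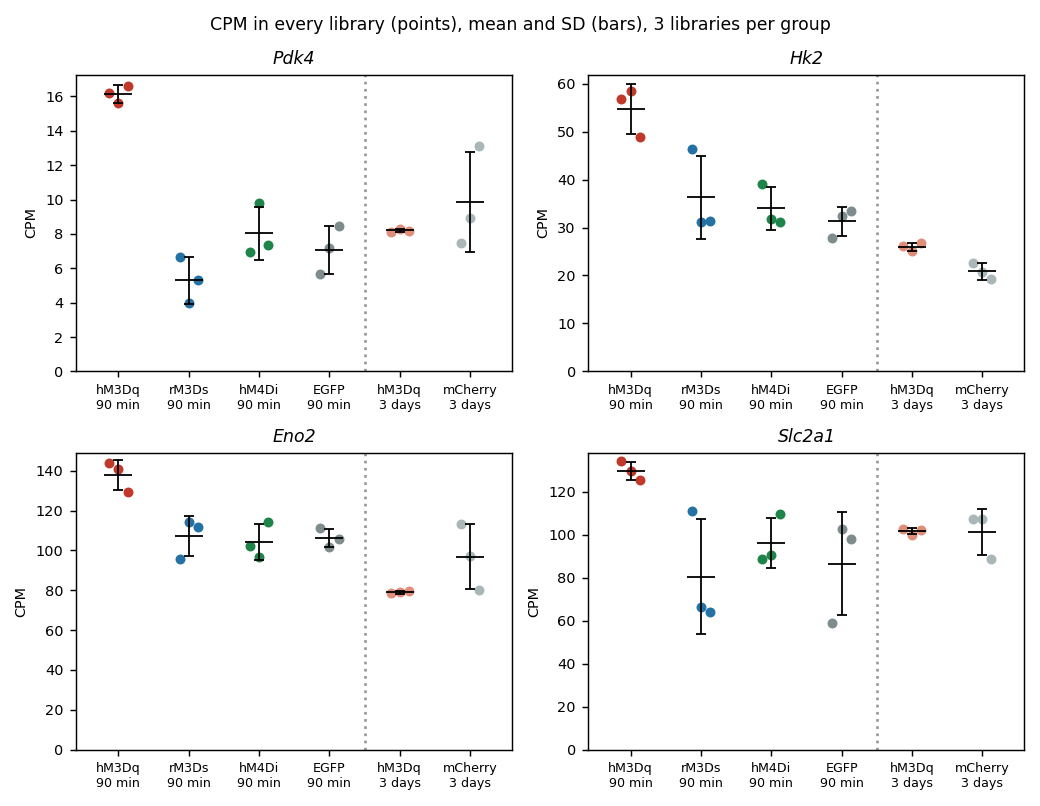
CPM of 4 members in every library (points) with the mean and SD of each group (bars, n = 3), the 4 groups at 90 min left of the dotted line and the 2 groups at 3 days right of it. At 90 min the 3 hM3Dq libraries are above the other 9 for all 4 genes, and at 3 days the Eno2 level with hM3Dq is below that of every mCherry library.

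Among the members not called, 2 more were above all EGFP libraries and 1 was below. In all, 4 members were fully above EGFP and 1 fully below, against 6.06% and 9.44% of all genes. Slc2a1, which encodes the glucose transporter GLUT1, had 134.1, 129.5 and 125.7 CPM with hM3Dq, against 59.0, 102.6 and 98 CPM with EGFP. Its log2 difference was 0.62 ± 0.23 (SE; adjusted p = 0.477, edgeR), and its lowest EGFP value came from EGFP 1, a library that stood apart. Eno2, the neuronal-type enolase, had 143.7, 140.9 and 129.4 CPM with hM3Dq, against 111.0, 101.9 and 105.9 CPM with EGFP. Its log2 difference of 0.41 ± 0.09 (SE) missed the threshold (adjusted p = 0.0865, edgeR). It was called with DESeq2 (adjusted p = 0.00862) and by edgeR with a term for the 3 libraries that stood apart (adjusted p = 0.0178). Pdk1, a kinase of the same family as Pdk4 and a known target of HIF-1, had 25, 25.4 and 24.4 CPM with hM3Dq, against 28.9, 29.8 and 32.7 CPM with EGFP. That log2 difference of -0.25 ± 0.08 (SE; adjusted p = 0.405, edgeR) was the lowest among the members, so the direction of Pdk1 was opposite to that of Pdk4.

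The remaining steps of the pathway showed no called member with hM3Dq. The 9 genes from glucose-6-phosphate isomerase (Gpi1) to pyruvate kinase, with the phosphofructokinase genes left out, had a median log2 fold change of 0.14. Only Eno2 among these 9 did not overlap with EGFP. The phosphofructokinase genes Pfkl, Pfkm and Pfkp all overlapped with EGFP. Pfkfb3, whose product makes the phosphofructokinase activator fructose-2,6-bisphosphate, had 11.0, 10.6 and 10.8 CPM with hM3Dq, against 15.2, 10.8 and 9.80 CPM with EGFP. Ldha, whose subunit favours lactate formation, had 539.4, 518.2 and 643.0 CPM, against 584.2, 518.4 and 542.7 CPM, and Ldhb, the other subunit, 64.4, 76.1 and 76.3 CPM, against 45.4, 75.9 and 81.2 CPM. The lactate carriers overlapped as well. Slc16a1 had 58.7, 56.8 and 62.3 CPM with hM3Dq, against 57.0, 55.9 and 58.1 CPM with EGFP. Slc16a3 had 2.77, 3.49 and 3.14 CPM with hM3Dq, against 0.891, 3.13 and 4.15 CPM with EGFP. Pfkm and Pfkfb2, both of the phosphofructokinase step, and Pdha1, a pyruvate dehydrogenase subunit, differed from EGFP by -0.06, 0.14 and -0.04 on the log2 scale and were called in none of the 10 comparisons. The 7 glycogen genes had log2 fold changes of -0.16 to 0.14 with a median of -0.05. Glycogen synthase Gys1 had 41.7, 42.1 and 38.6 CPM with hM3Dq, against 37.4, 41.8 and 39.6 CPM with EGFP, and Pygb 824.3, 766.1 and 773.4 CPM, against 523.1, 839.7 and 846.7 CPM. Ppp1r3c, which targets protein phosphatase 1 to glycogen, had 45.2, 37.0 and 50 CPM, against 68.2, 39.2 and 42.9 CPM.

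rM3Ds gave no called member against EGFP by edgeR, limma-voom or DESeq2, where 0.0147% of all genes were called by edgeR. At an unadjusted p below 0.05 there were 4 members higher and 0 lower, against 407 higher and 168 lower among all genes. The median log2 difference was 0.09, against -0.016 for all genes. The highest member was Pfkfb3, with 11.8, 25.8 and 30.4 CPM in rM3Ds libraries, against 15.2, 10.8 and 9.80 CPM in EGFP libraries (log2 difference 0.91 ± 0.38, SE; adjusted p = 1.0, edgeR). The 2 high values are from rM3Ds 2 and rM3Ds 3, the libraries high in cell cycle genes. Their Mki67 level was 42.7 and 52.1 CPM, against 4.32 CPM in rM3Ds 1. Pfkp, the platelet-type phosphofructokinase, split the same way, with 55.3, 93.6 and 94.8 CPM, against 57.0, 62.6 and 59.1 CPM with EGFP, and so did Pygl, with 21.8, 12.5 and 11.4 CPM, against 16.9, 20.5 and 22.2 CPM. Without rM3Ds 1 Pfkp was called higher and Pygl lower (log2 0.66 and -0.73; adjusted p = 0.0212 and 0.0254, edgeR), and the background was then 0.831%. Without rM3Ds 2 or rM3Ds 3 no member was called.

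Tpi1 (triose phosphate isomerase), Pgk1 (phosphoglycerate kinase) and Pdk1 were above EGFP in all 3 rM3Ds libraries. These are 3 of 33 members, against 4.41% of all genes, and no member was fully below (2.94%). Tpi1 had 351.8, 427.4 and 385.1 CPM with rM3Ds, against 273.1, 308.2 and 318.2 CPM with EGFP (log2 0.36 ± 0.12, SE; adjusted p = 0.995, edgeR). Pgk1 had 337.7, 418.0 and 374.0 CPM with rM3Ds, against 294.1, 290.5 and 327.0 CPM. Pdk1 had 33.7, 34.6 and 34.9 CPM with rM3Ds, against 28.9, 29.8 and 32.7 CPM. The lowest of the members with a mean of at least 1 on the log2 CPM scale was Pdk4, at 6.67, 3.95 and 5.29 CPM with rM3Ds, against 5.64, 7.15 and 8.45 CPM, and the groups overlapped (log2 -0.42 ± 0.22, SE; adjusted p = 1.0, edgeR).

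hM4Di gave no call among the members or among all genes by edgeR (0.0% of 13584) or limma-voom, and DESeq2 called 19 genes, none a member. At an unadjusted p below 0.05, 1 member was higher and 1 lower, against 315 and 430 of all genes. The median log2 difference of the members was 0.04. Gpi1 and Pgam1 were above EGFP in all hM4Di libraries, which is 2 of 33 members against 4.34% of all genes. Gpi1 had 476.8, 501.9 and 528.3 CPM with hM4Di, against 391.6, 444.1 and 454.6 CPM with EGFP (log2 0.21 ± 0.08, SE; adjusted p = 0.833, edgeR). Pgam1, a phosphoglycerate mutase, had 326.0, 341.3 and 353.1 CPM with hM4Di, against 307.4, 261.8 and 293.8 CPM. Pygm was fully below, at 0.198, 0.431 and 0.660 CPM with hM4Di, against 0.697, 0.865 and 1.22 CPM, levels near the floor, and 4.01% of all genes were fully below. Among members at a mean of at least 1 on the log2 CPM scale, Eno1 was highest and Ppp1r3c lowest. Eno1 had 577.7, 857.7 and 1044.4 CPM with hM4Di, against 495.8, 678.4 and 792.7 CPM (log2 0.31 ± 0.23, SE). Ppp1r3c had 30.7, 37.8 and 43.8 CPM with hM4Di, against 68.2, 39.2 and 42.9 CPM (log2 -0.45 ± 0.21, SE), and the high value is EGFP 1.

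**Figure D3:**
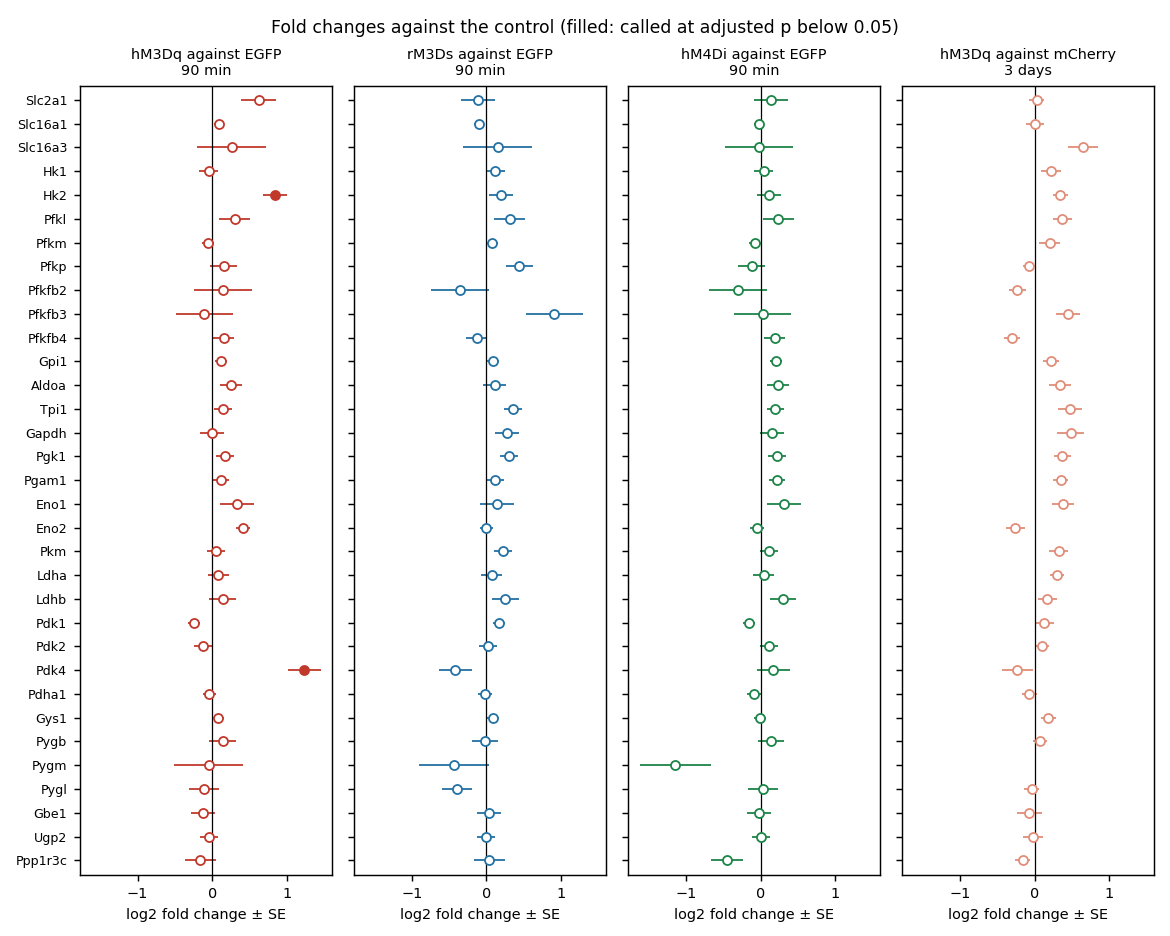
Log2 fold change of each member against the control of the same time, from edgeR, with its SE. Filled points were called at an adjusted p below 0.05: Pdk4 and Hk2 with hM3Dq at 90 min, and none in the other 3 comparisons. Pygm was not tested at 3 days.

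The difference between receptors was tested directly. hM3Dq against rM3Ds gave 1 called member, against 0.67% of all genes. This was Pdk4, with 16.2, 15.6 and 16.6 CPM with hM3Dq, against 6.67, 3.95 and 5.29 CPM with rM3Ds (log2 1.65 ± 0.22, SE; adjusted p = 0.00554, edgeR). edgeR called it in all 6 fits that left out 1 library and with a term for the 3 libraries that stood apart. Without those 3, a single rM3Ds library is left and is assumed to vary like the other groups, and the log2 difference was 1.32 (adjusted p = 0.0816, edgeR). Pdk1 differed the other way, at 25, 25.4 and 24.4 CPM with hM3Dq, against 33.7, 34.6 and 34.9 CPM with rM3Ds, and just missed the threshold (log2 -0.42 ± 0.08, SE; adjusted p = 0.0552, edgeR). Without rM3Ds 1, 7 members were called, namely Hk2, Slc2a1, Pygl and Pdk4 higher with hM3Dq and Pfkfb3, Pfkp and Pdk1 lower, at a background of 4.27%.

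hM3Dq against hM4Di also gave 1 called member, against 0.802% of all genes. Eno2 had 143.7, 140.9 and 129.4 CPM with hM3Dq, against 102.1, 96.5 and 114.2 CPM with hM4Di (log2 0.46 ± 0.09, SE; adjusted p = 0.047, edgeR). Leaving out any 1 of the 6 libraries ended this call (adjusted p of 0.0924 to 0.321). Pdk4 (log2 1.06 ± 0.22, SE; adjusted p = 0.0523) and Hk2 (log2 0.74 ± 0.16, SE; adjusted p = 0.0678, edgeR) missed the threshold by little. Without the 3 libraries that stood apart, none of which belongs to these groups, Eno2, Hk2, Pdk4 and Slc2a1 were called higher with hM3Dq, against 2.16% of all genes. rM3Ds against hM4Di gave no called member by edgeR, limma-voom or DESeq2 (0.0147% of all genes by edgeR). At an unadjusted p below 0.05, 4 members were higher and 2 lower there, against 851 and 504 of all genes. The comparisons at 90 min share groups, so their values are not independent.

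At 3 days after hM3Dq activation most glycolytic enzymes lay above the mCherry controls by small amounts, and no member was called. edgeR called 0 of 32 members tested and 0.0% of 12807 genes. At an unadjusted p below 0.05, 11 members were higher and 1 lower, against 583 and 957 of all genes. limma-voom and DESeq2 called 1 and 140 genes, none a member. The median log2 difference was 0.18, against -0.007 for all genes. Of the members, 13 were above mCherry in every library and 3 below, against 9.32% and 16.2% of all genes. Of the 9 genes from Gpi1 to Pkm, with the phosphofructokinase genes left out, 7 were fully above, with a median of 0.35 over the 9. Gpi1 overlapped with mCherry, and Eno2 was fully below. Of the phosphofructokinase genes, Pfkl was fully above (log2 0.37), Pfkm overlapped (0.20) and Pfkp was fully below (-0.07).

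Pgam1 had 375.1, 394.2 and 432.5 CPM with hM3Dq at 3 days, against 321.7, 342.3 and 298.9 CPM with mCherry (log2 0.35 ± 0.10, SE; adjusted p = 0.271, edgeR). Pgk1 had 455.4, 501.9 and 533.9 CPM with hM3Dq, against 400.0, 422.0 and 353.4 CPM with mCherry (log2 0.37 ± 0.11, SE; adjusted p = 0.276, edgeR). Hk2 had 26.1, 25 and 26.8 CPM with hM3Dq, against 22.6, 20.7 and 19.2 CPM with mCherry (log2 0.34 ± 0.10, SE; adjusted p = 0.289, edgeR). For all 3 genes the hM3Dq libraries were wholly above the controls. Slc16a3, the carrier MCT4 that exports lactate from glycolytic cells, was highest of all members, at 4.16, 4.03 and 3.37 CPM with hM3Dq, against 2.38, 3.00 and 2.10 CPM with mCherry (log2 0.65 ± 0.20, SE; adjusted p = 0.294, edgeR). Ldha had 575.5, 577.5 and 633.6 CPM with hM3Dq, against 494.3, 523.9 and 457.2 CPM with mCherry. Slc16a1, Slc2a1, Gys1, Pygb and Ldhb overlapped between the groups. Slc2a1 had 102.8, 100.1 and 102.1 CPM with hM3Dq, against 107.3, 107.5 and 88.9 CPM.

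The members fully below mCherry were Pfkfb4, Pfkp and Eno2. Pfkfb4, a bifunctional enzyme that sets fructose-2,6-bisphosphate, was the lowest, at 13, 14.8 and 15.3 CPM with hM3Dq, against 18.8, 17.9 and 17.2 CPM with mCherry (log2 -0.30 ± 0.11, SE; adjusted p = 0.361, edgeR). Eno2 had 78.4, 78.9 and 79.8 CPM with hM3Dq, against 113.0, 97.2 and 80.3 CPM with mCherry. Pdk4 had 8.13, 8.31 and 8.19 CPM with hM3Dq, against 7.48, 8.93 and 13.1 CPM with mCherry, so that the higher level seen at 90 min was not present at 3 days.

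The 3-day result turned on 1 library. mCherry 3 held 6488.5 CPM of the members together, against 7801.6 and 7998.6 CPM in mCherry 1 and 2, while the hM3Dq libraries held 8502.8 to 9001.5 CPM. Gapdh, for example, had 368.1, 408.5 and 403.0 CPM with hM3Dq, against 324.3, 335.6 and 202.6 CPM with mCherry. Without mCherry 3, edgeR called 11 members, at a background of 9.72% of 12929 genes. The 9 higher members were Tpi1 and Pgam1 (log2 0.30 each), Pgk1 (0.30), Hk2 (0.29), Gapdh (0.28), Pdk1 (0.27), Ldha (0.26), Pfkl (0.24) and Eno1 (0.23), against 4.15% of all genes called higher. Eno2 (-0.38) and Pfkfb4 (-0.33) were lower, against 5.58%. The control then has 2 libraries. Leaving out any other library gave 0 called members. The 16 cell cycle genes summed to 132.8 to 141.7 CPM with hM3Dq, against 130.7 to 183.5 CPM with mCherry, and mCherry 3 had 9.65 CPM of Mki67, against 2.00 and 6.57 CPM in the other mCherry libraries.

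**Figure D4:**
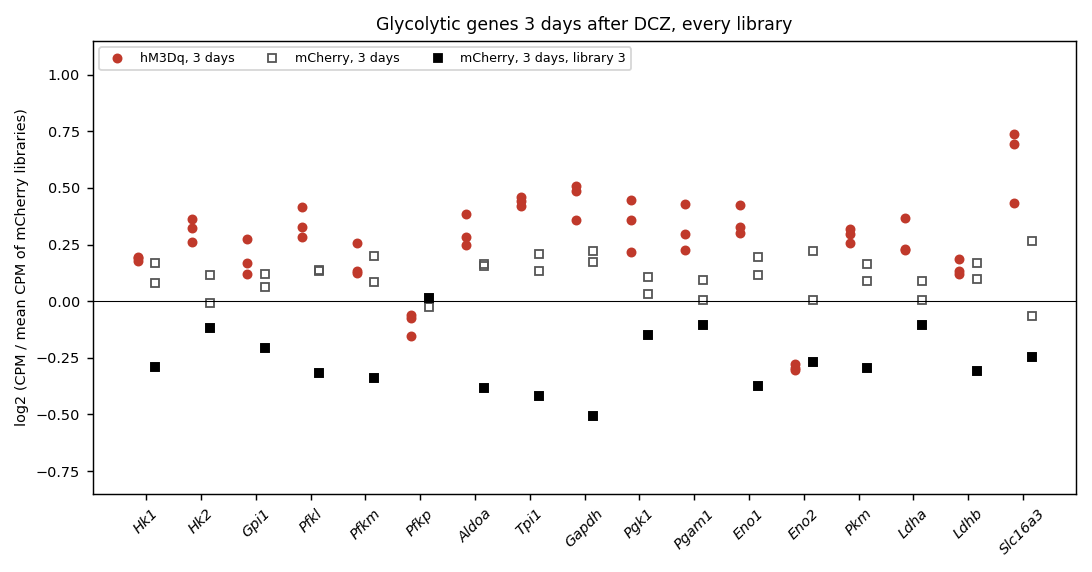
Log2 of CPM over the mean of the 3 mCherry libraries at 3 days, for 17 members, from hexokinase to lactate dehydrogenase and MCT4 (Slc16a3) without the Pfkfb genes, in every library. The filled square is mCherry 3, which is the lowest library for every gene shown but Pfkp and Eno2. For Pfkp and Eno2 the 3 hM3Dq libraries are lowest.

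Whether the hM3Dq effect differed between 3 days and 90 min was tested as an interaction, each effect taken against its own control. edgeR called no member, against 0.396% of 13391 genes. At an unadjusted p below 0.05, 1 member was higher and 5 lower, against 494 and 809 of all genes. DESeq2 called Pdk4 and Eno2. Without mCherry 3, edgeR called these same 2 genes. Pdk4 was nearest, with a log2 effect of -0.23 ± 0.21 at 3 days and 1.23 ± 0.22 at 90 min and a difference of -1.46 ± 0.28 (SE; adjusted p = 0.0506, edgeR). The Eno2 effect was -0.26 ± 0.13 at 3 days and 0.41 ± 0.09 at 90 min, a difference of -0.67 ± 0.16 (SE; adjusted p = 0.129, edgeR). Eno2 was below every control library at 3 days and above every control library at 90 min, as were 16.2% and 6.06% of all genes. Without EGFP 1 and mCherry 3, an alternative chosen after seeing the data, Eno2, Pdk4 and Slc2a1 were called lower and Pdk1 higher (log2 -0.83, -1.06, -0.46 and 0.55). The share of all genes called in these alternatives is not given here.

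Between 3 days and 90 min single members differed in both hM3Dq and control cultures, in a share no higher than that of all genes. Time since DCZ, change of medium, fluorescent protein and the separate count tables cannot be told apart in these comparisons. The count tables differed in the share of values that were not whole numbers. It was 52.9 to 57.8% in the libraries at 90 min, against 27.0 to 29.5% at 3 days, except 40.2% in mCherry 3. Its part in the results was not tested. In hM3Dq cultures 11 of 33 members were called at 3 days against 90 min, at a background of 37.9%, of which 6 were higher (17.6% of all genes) and 5 lower (20.2%). In control cultures 9 of 33 were called, at a background of 39.4%, of which 3 were higher (18.4%) and 6 lower (21.0%). Pgk1, Pdk1 and Ugp2 were called higher in both, and Hk2, Pygl and Pygm lower in both.

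The largest shift on the log2 scale among well-counted members was in the pyruvate dehydrogenase kinases. Pdk1 had 64.2, 66.9 and 74.8 CPM in hM3Dq cultures at 3 days, against 25, 25.4 and 24.4 CPM at 90 min (log2 1.44 ± 0.11, SE; adjusted p = 4.34e-06, edgeR). In control cultures it had 58.6, 57.9 and 75.7 CPM at 3 days, against 28.9, 29.8 and 32.7 CPM at 90 min (log2 1.05 ± 0.11, SE; adjusted p = 6.2e-05, edgeR). Pdk2 rose in hM3Dq cultures, with 61.9, 60.1 and 63.9 CPM, against 44.4, 43.8 and 45.2 CPM (log2 0.46 ± 0.12, SE, adjusted p = 0.0103, edgeR). Its groups overlapped in control cultures, and the difference between the cultures was not called (adjusted p = 0.68, edgeR). Pdk4 fell in hM3Dq cultures (log2 -1.0 ± 0.20, SE; adjusted p = 0.0021) and was not called in control cultures (log2 0.46 ± 0.20, SE; adjusted p = 0.0828, edgeR).

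Hk2 was lower at 3 days in both, at 25 to 26.8 CPM against 48.8 to 58.4 CPM in hM3Dq cultures (log2 -1.10 ± 0.11, SE; adjusted p = 1.59e-05) and at 19.2 to 22.6 CPM against 27.9 to 33.5 CPM in control cultures (log2 -0.60 ± 0.11, SE; adjusted p = 0.00129, edgeR). Hk1 had 228.3, 214.8 and 165.7 CPM in control cultures at 3 days, against 304.2, 272.7 and 273.7 CPM at 90 min. It was called lower there (log2 -0.50 ± 0.12, SE) and not in hM3Dq cultures (log2 -0.23 ± 0.12, SE), and the difference between the cultures was not called (adjusted p = 0.636, edgeR). Tpi1, Pgk1 and Pgam1 rose in hM3Dq cultures by 0.63 ± 0.14, 0.56 ± 0.11 and 0.38 ± 0.11 on the log2 scale (SE; adjusted p = 0.00444, 0.002 and 0.018, edgeR). Tpi1 had 497.5, 511.7 and 506.1 CPM at 3 days, against 309.1, 313.1 and 345.5 CPM at 90 min. In control cultures Pgk1 rose by 0.35 ± 0.11 (SE; adjusted p = 0.0244, edgeR), while Tpi1 was called there only without EGFP 1 and mCherry 3 (log2 0.41, adjusted p = 0.000382). The difference between the cultures was not called for Tpi1 or Pgam1 (adjusted p = 0.614 and 0.637, edgeR). Eno2 fell in hM3Dq cultures, with a log2 difference of -0.82 ± 0.11 (SE; adjusted p = 0.000196, edgeR).

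Gapdh and Eno1 were called lower at 3 days in control cultures (log2 -0.74 ± 0.18 and -0.54 ± 0.19, SE). Both are uncertain because near-identical copies may share their reads, which was followed for Eno1 alone. Gapdh had 324.3, 335.6 and 202.6 CPM in control cultures at 3 days, against 555.9, 426.2 and 440.5 CPM at 90 min. Eno1 had 495.4, 522.7 and 352.5 CPM, against 495.8, 678.4 and 792.7 CPM, and its groups overlapped. The copy Eno1b took 6.7 to 9.5% of the Eno1 and Eno1b counts at 90 min and 0.658 to 1.4% at 3 days, except 4.33% in mCherry 3. The sum of both was 465.7 ± 85.7 CPM in control cultures at 3 days, against 705.3 ± 163.0 CPM at 90 min (SD, n = 3). By library this sum was 368.4 to 530.1 CPM, against 531.4 to 854.7 CPM, so that it too was lower at 3 days, by a narrow margin. Of the glycogen genes, Ugp2, which makes UDP-glucose, was higher at 3 days in both cultures, with 232.1, 236.5 and 237.9 CPM at 3 days, against 168.0, 156.4 and 206.1 CPM at 90 min in hM3Dq cultures (log2 0.39 ± 0.13, SE; adjusted p = 0.0356, edgeR). Pygl was lower, with 14.5, 13.7 and 14.8 CPM, against 17.5, 17.7 and 18.5 CPM (log2 -0.34 ± 0.11, SE; adjusted p = 0.0267, edgeR). Pygm fell to 0.214 to 0.406 CPM in hM3Dq cultures at 3 days, against 0.541 to 1.07 CPM at 90 min, near the floor.

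**Figure D5:**
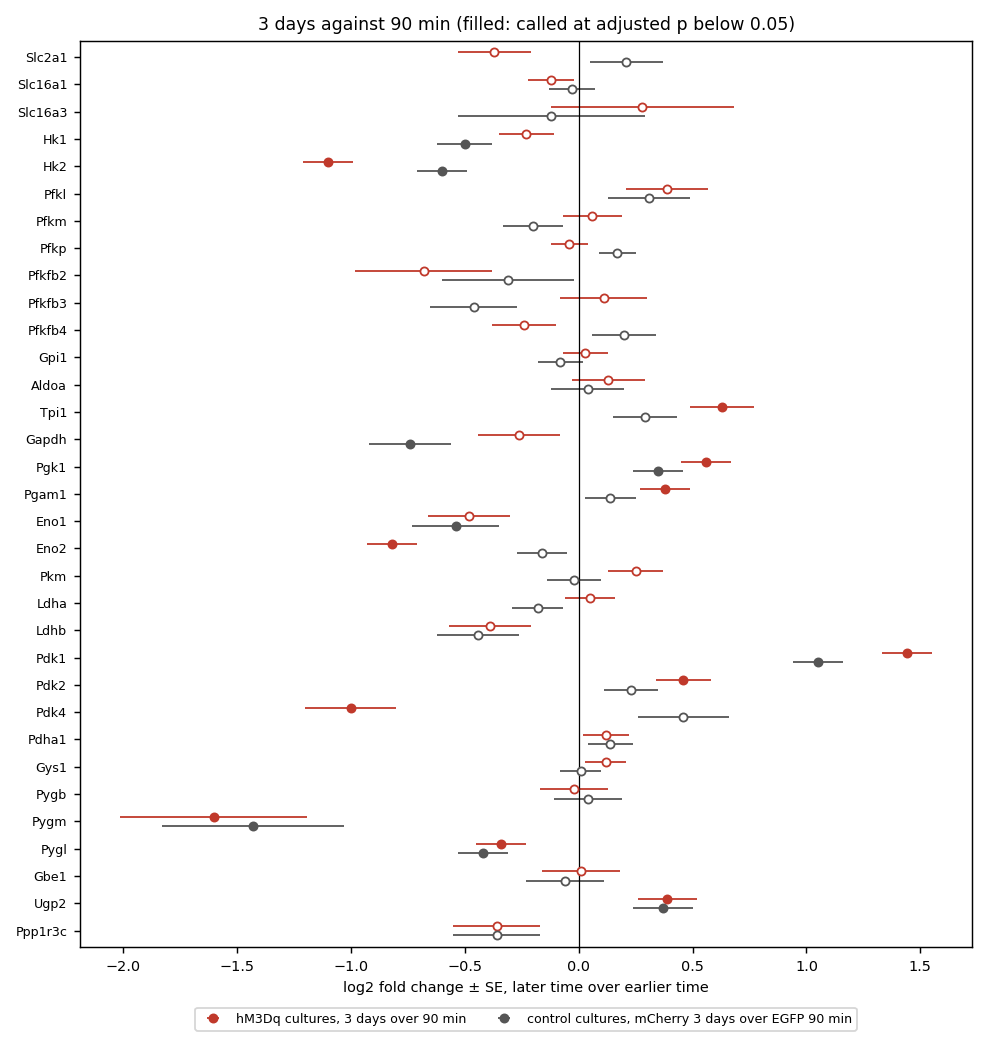
Log2 fold change of each member at 3 days over 90 min, with its SE, in hM3Dq cultures (upper point of each pair) and in control cultures (lower point). Filled points were called by edgeR. Pdk1 is far to the right and Hk2 to the left in both, while Tpi1, Pgam1, Eno2, Pdk2 and Pdk4 are filled in hM3Dq cultures alone.

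Genes next to the members in metabolism were described from lists chosen by function. With hM3Dq at 90 min, 1 of 23 further glycogen genes tested was called higher. Pgm2, a phosphoglucomutase, had 52.6, 56.4 and 58.2 CPM with hM3Dq, against 35.0, 29.3 and 36.2 CPM with EGFP (log2 0.77 ± 0.12, SE; adjusted p = 0.0104, edgeR), and the groups did not overlap. It was also called higher than in rM3Ds and hM4Di cells (adjusted p = 0.0269 and 0.0123, edgeR). Slc5a3, a myo-inositol carrier whose gene overlaps Mrps6 so that its reads may be shared, had 884.6, 906.6 and 798.5 CPM with hM3Dq, against 260.7, 468.7 and 458.4 CPM with EGFP (log2 1.16 ± 0.25, SE; adjusted p = 0.0823, edgeR). It was called higher against rM3Ds and hM4Di (adjusted p = 0.023 and 0.0249, edgeR), and its hM3Dq effect was lower at 3 days than at 90 min (log2 -1.48 ± 0.27, SE; adjusted p = 0.0368, edgeR).

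No gene was called with hM3Dq at 90 min among 10 further glycolytic enzymes, 11 genes of pyruvate entry into mitochondria, 15 further transporters, 8 of the pentose phosphate pathway, 19 HIF-1 factors and targets, 17 PPAR and FOXO factors and targets, 6 of glucose sensing by MondoA and ChREBP or 17 of the tricarboxylic acid cycle. Their medians lay between -0.12 and 0.06 on the log2 scale. Slc5a3, one of these transporters, was nearest to the threshold, followed by Arrdc3, a relative of the glucose-sensor target Txnip (log2 0.53 ± 0.13, SE; adjusted p = 0.125, edgeR). Among the genes with the smallest p of each list were Ppp1r3b (log2 -0.56 ± 0.19, SE), a glycogen-targeting subunit, and Txnip (-0.39 ± 0.37, SE), and no other gene chosen so had an adjusted p below that of Ppp1r3b, 0.398 by edgeR, apart from those named with values above. The HIF-1 list, whose targets overlap in function with Pdk1, Pgk1 and Slc2a1, had 9 of 19 genes called higher and 0 lower at 3 days against 90 min in hM3Dq cultures (median log2 0.46) and also in control cultures (median 0.57), where 17.6% and 18.4% of all genes were called higher. In hM3Dq cultures Bnip3, a mitophagy receptor, rose by 1.04 ± 0.16 and Ddit4, an inhibitor of mTORC1, by 1.6 ± 0.23 on the log2 scale (SE; adjusted p = 0.000353 and 0.000343, edgeR). Bnip3 was called higher in control cultures too, but Ddit4 was not. Ddit4 had 46.9 CPM in mCherry 3, below the 52.7 to 57.2 CPM of the EGFP libraries, while mCherry 1 and mCherry 2 were above them. Of the members named with this list, Pdk1 and Pgk1 were called higher in both cultures. Slc2a1 was called in neither, at log2 -0.37 in hM3Dq and 0.21 in control cultures (edgeR).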

How the data were processed

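Poly-A RNA of 18 libraries was sequenced by the authors. The tools fastp 0.23.4 and Salmon 1.8.0 and the build mm39 are named, without their roles, per the submitters' processing notes, and the authors deposited estimated counts per gene, in a table for each time. The strand used in counting is not given in the sources used here. All 18 value columns were mapped to samples by name. Of 22078 Entrez identifiers 21978 had a symbol, and the rest held 0.034% of the counts. Estimated counts were rounded to whole numbers and tested with edgeR 4.0.16 in R 4.3.3 (quasi-likelihood, TMM, filterByExpr, robust), with adjustment across every gene of a fit. There was 1 fit for the 4 groups at 90 min, 1 for the 2 at 3 days and 1 across times, without rM3Ds and hM4Di. The script was tested on simulated counts.

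Depth was 16.1 to 25.2 M counts per library. Alternatives were RLE size factors, no filter on low counts, the replicate number as a block, limma-voom (limma 3.58.1), DESeq2 1.42.0, each library left out, the 3 libraries that stood apart left out or given a term, and only the groups compared. Deviations from the group mean of same-numbered hM3Dq and EGFP libraries correlated weakly, at 0.13, 0.16 and 0.12. The number was taken to pair them, a reading from the data and not from the labels. For hM4Di and EGFP these correlations were 0.37, 0.1 and 0.3, and for rM3Ds and EGFP -0.76, -0.57 and -0.57. The block was fitted over all 12 libraries at 90 min, so a call lost under it does not show that libraries are paired. In no other comparison were all 3 above 0.1.

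Genes given with values are all members called in a comparison, the highest and lowest with a mean of at least 1 on the log2 CPM scale against each control, up to 4 others per control comparison whose groups did not overlap, and 9 chosen by role. Of each other list, the called genes and the 2 with the smallest p against EGFP with hM3Dq could be named, and Mki67, Pecam1, Bnip3 and the copy Eno1b were chosen after their values were seen. The members and gene lists were chosen with earlier results of these data known.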

Additional observations from a re-analysis of the deposited data

Results flagged for a closer look

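The hM3Dq effect on Eno2 had opposite signs at the 2 times. Neither effect was itself called (log2 -0.26, adjusted p = 0.437 at 3 days, and 0.41, adjusted p = 0.0865 at 90 min, edgeR). The Eno2 level was below every mCherry library at 3 days and above every EGFP library at 90 min, as for 16.2% and 6.06% of all genes. At 3 days the margin was small, with 79.8 CPM in hM3Dq 3, against 80.3 CPM in mCherry 3, a library that stood apart. The difference of the log2 effects was -0.67. By edgeR's interaction test this difference did not pass the threshold (adjusted p = 0.129).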

How the results depend on the processing

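Counts of called members moved with the processing where calls were near the threshold. For hM3Dq against EGFP the count of 2 became 0 with the replicate block, 0 to 1 with a library left out, and 3 with DESeq2 or a term for the 3 libraries that stood apart, which added Eno2. For hM3Dq against rM3Ds the count of 1 became 4 with DESeq2, 0 without the 3 libraries (a single rM3Ds library is then left), 2 with a term for them, and 1 to 7 with a library left out. For hM3Dq against hM4Di the count of 1 became 0 with RLE size factors, without the filter, with the block or with any library left out, 2 with limma-voom or only these groups fitted, 3 with DESeq2, and 4 without the 3 libraries or with a term for them. The count of 0 for rM3Ds against EGFP and for rM3Ds against hM4Di became 0 to 2 with a library left out. At 3 days the count of 0 became 0 to 11, the highest without mCherry 3. For the interaction the count of 0 became 1 without the filter, 2 with DESeq2, 4 without EGFP 1 and mCherry 3, and 0 to 2 with a library left out. Across times, the 9 called in control cultures became 3 with only these groups fitted and 13 without EGFP 1 and mCherry 3, and the 11 in hM3Dq cultures became 19 and 20. The causes were not tested. The share of all genes called is not given here for most of these alternatives, so a count of members cannot be set against it. The block changed no other call of a member, and could not be fitted across times, where the numbers name different libraries. Over all genes, DESeq2 called 226 instead of 107 for hM3Dq against EGFP, 456 instead of 91 against rM3Ds and 391 instead of 109 against hM4Di, and the block gave 67 for the first. Of single-gene values under alternatives, 465 kept direction and side of the threshold, 61 lost the call, 6 gained it and none reversed. Members near 3 counts, such as Pygm, are limited by depth.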
